A study of Homo sapiens with 4 samples.

Results

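Transcription by RNA polymerase II (Pol II) is driven past its early pause, and kept going along the gene body, by cyclin-dependent kinases that phosphorylate serine 2 of the Pol II tail. The mRNA of 10 genes of this machinery was examined: the kinase of positive transcription elongation factor b (P-TEFb), *CDK9*, with its cyclins *CCNT1* and *CCNT2*; the kinases *CDK12* and *CDK13* with their shared cyclin *CCNK*; and the paralogous kinases *CDK11A* and *CDK11B* with their cyclins *CCNL1* and *CCNL2*. The genes were chosen by symbol from the 28278 genes of the deposited count table, all 10 were found, and all 10 passed the filter on low counts that left 15150 genes for testing.

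RNA-seq was performed in 4 libraries labelled HepG2, a human line established from a liver tumour, and every library came from cells treated with Sorafenib, a multikinase inhibitor, at 10 µM for 24 h. The 2 control libraries came from cells infected with lentivirus carrying Cas9 and a control sgRNA, and the 2 libraries labelled sgUSP22 from cells infected with lentivirus carrying Cas9 and a single sgRNA against *USP22*, the deubiquitinase of the SAGA coactivator complex. Both were stable populations selected with puromycin, and no untreated library is analysed here. The study found the CDK11B protein among the partners of USP22 and reported less of that protein after *USP22* knockout or knockdown. It also reported a shorter half-life and more ubiquitin on that protein after knockout, and a longer half-life with *USP22* overexpression. It reported *CDK11B* mRNA as unchanged, by RT-qPCR in HepG2 cells with *USP22* knockdown, an experiment described without mention of Sorafenib. The question addressed here is which mRNAs of the kinase-cyclin pairs differed between the groups, and by how much.

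P-TEFb releases paused Pol II at nearly all genes, and it is held inactive by the 7SK RNA with HEXIM proteins until it is released, for example to the super elongation complex. CDK12 and CDK13 with cyclin K act later, in the gene body, and CDK12 is known for keeping up full-length transcripts of long genes and of DNA repair genes. CDK11 works with L-type cyclins in nuclear speckles, where splicing factors are stored, and contributes to splicing and to the transcription of replication-dependent histone genes.

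Total counts ranged from 62030307 to 64728272 per library. The targeted transcript, *USP22*, was not lower in the libraries labelled sgUSP22, with 269.7 and 265.0 CPM in the control libraries and 308.6 and 315.5 CPM in the others (edgeR adjusted p = 0.000394). The study reported the knockout at the protein level, by Western blot, and mRNA counts do not measure that protein. Every direction below therefore follows the label. CPM are counts relative to the library total, with TMM scaling throughout. Of 16 hepatocyte and liver tumour markers, 15 stayed below 1 CPM in every library and 8 were listed at 0 in all 4, *ALB* and *APOB* among them, while *CPS1* reached 975 to 1329 CPM. These levels go against the HepG2 label, and the cells are called by it only as a label. The summed level of the hepatocyte list was 976 to 1016 CPM in control and 1300.1 to 1329 CPM in sgUSP22 libraries. For 4 epithelial markers it was 1756 to 1795 and 1315 to 1373 CPM, carried by *KRT8* and *KRT18*, with *CDH1* listed at 0. For 6 mesenchymal markers it was 1639 to 1643 and 1443 to 1468 CPM, of which *VIM* went from 1078 and 1067 to 829.7 and 806 CPM and *COL3A1* the other way, from 499 and 507 to 576 and 569 CPM. For 3 blood cell markers it was 73.8 to 73.9 and 43.9 to 46.9 CPM, nearly all *CD68*, with *HBB* listed at 0. The part of these shifts in the results below was not tested, and in bulk RNA fewer cells of a type and less RNA per cell cannot be told apart.

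The 4 largest differences among the 10 genes were all of cyclin genes: *CCNT2*, *CCNT1* and *CCNK* rose and *CCNL1* fell. At an adjusted p below 0.05 (quasi-likelihood test of edgeR, adjusted by Benjamini-Hochberg over all 15150 genes), 6 of the 10 were higher in the libraries labelled sgUSP22, against 26.8% of all tested genes, and 1 of the 10 was lower, against 25.8%. In either direction these were 7 of 10, against 52.5% of all. The 6 were *CDK9*, *CCNT1*, *CCNT2*, *CDK12*, *CDK13* and *CCNK*, that is, every kinase and cyclin of the P-TEFb and cyclin K groups, and the lower gene was *CCNL1*. With the study's added threshold of a 1.5-fold change, 1 of the 10 was higher (*CCNT2*; background 8.88%) and 1 lower (*CCNL1*; background 7.25%), or 2 of 10 in either direction against 16.1%. The sgUSP22 libraries lay above both control libraries in 6 of the 10 genes and below both in 2 (*CCNL1* and *CDK11B*), where the same held for 38.3% and 37.6% of all tested genes. The median log2 fold change of the 10 was 0.19, beside 0.001 over all tested genes.

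**Figure D1:**
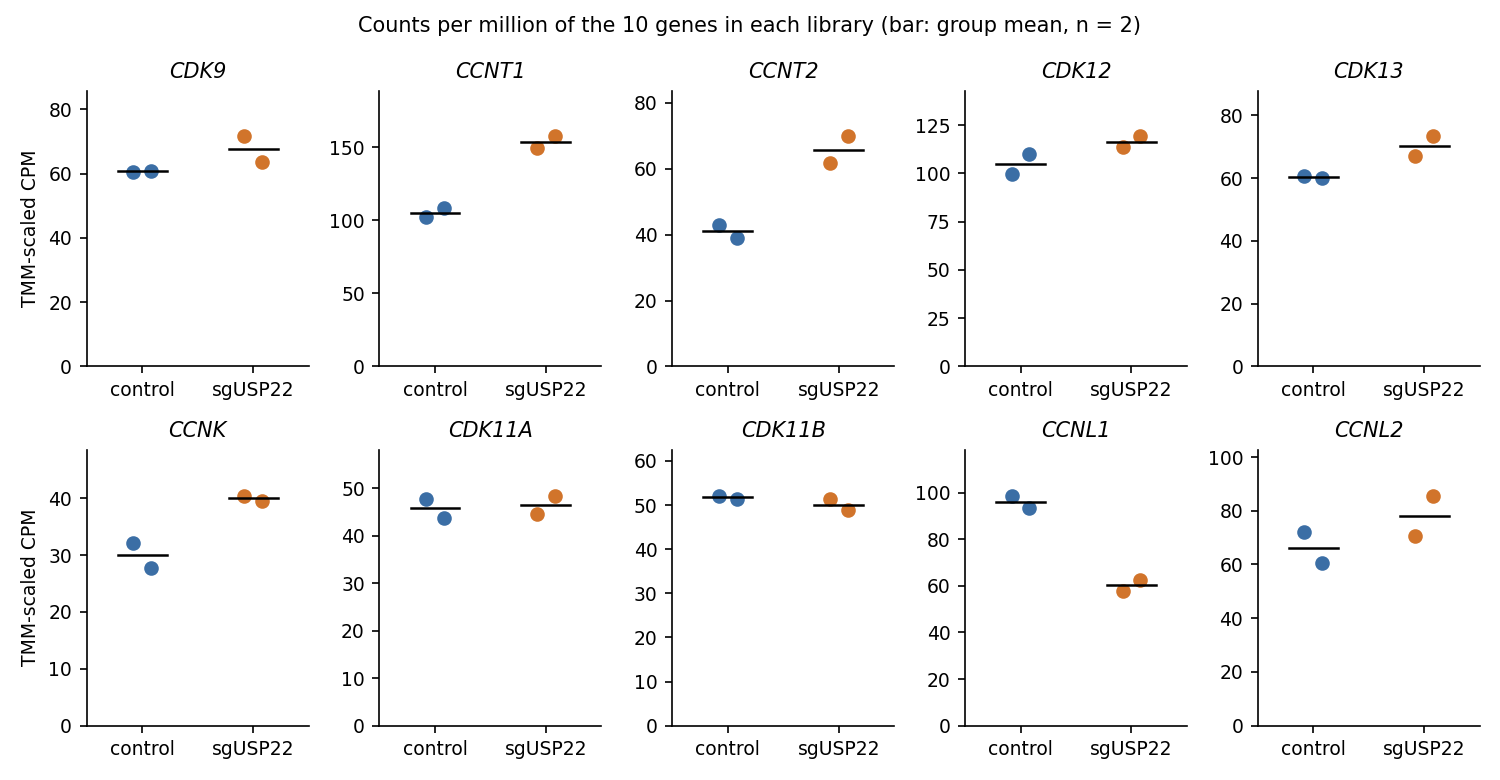
TMM-scaled CPM (vertical axes, each starting at 0) of the 10 genes in the 2 control libraries (blue) and the 2 libraries labelled sgUSP22 (orange), with the mean of each group as a bar. *CCNT1*, *CCNT2* and *CCNK* were higher and *CCNL1* was lower in both sgUSP22 libraries than in both control libraries, whereas the groups overlapped for *CDK11A* and *CCNL2*.

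The promoters of the cyclin genes that changed most are shown because 3 of them rose and 1 fell. Each run is a RefSeq promoter window (GRCh38.p14) that ends 50 bases into the canonical transcript, 5′ to 3′ on the gene's own strand, with capitals on the motifs searched on both strands. That start lies inside the wider GENCODE extent of the gene given further on, by 291 bases for *CCNT1*, 587 for *CCNT2*, 240 for *CCNK* and 613 for *CCNL1*. These were the TATA box with the letters TATAAA, the box with the letters CCAAT, the GC box with the letters GGGCGG, the ETS core with the letters CCGGAAG, the E-box with the letters CACGTG and the cAMP response element with the letters TGACGTCA, a set chosen after the expression values were seen.

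CCNT1, chr12:48716658-48716957, minus strand: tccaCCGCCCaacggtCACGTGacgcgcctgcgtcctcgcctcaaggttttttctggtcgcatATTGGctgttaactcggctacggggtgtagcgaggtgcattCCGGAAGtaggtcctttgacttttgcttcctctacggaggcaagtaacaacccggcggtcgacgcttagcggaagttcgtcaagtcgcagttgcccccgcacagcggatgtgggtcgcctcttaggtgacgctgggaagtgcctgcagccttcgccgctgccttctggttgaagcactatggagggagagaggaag
CCNT2, chr2:134918572-134918871, plus strand: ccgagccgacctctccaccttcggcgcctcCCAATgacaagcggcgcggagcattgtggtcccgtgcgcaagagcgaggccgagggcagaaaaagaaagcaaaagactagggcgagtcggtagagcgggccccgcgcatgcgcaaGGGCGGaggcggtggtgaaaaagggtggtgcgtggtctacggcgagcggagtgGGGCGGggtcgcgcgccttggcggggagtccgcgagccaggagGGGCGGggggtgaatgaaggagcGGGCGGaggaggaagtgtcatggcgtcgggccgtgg
CCNK, chr14:99481159-99481458, plus strand: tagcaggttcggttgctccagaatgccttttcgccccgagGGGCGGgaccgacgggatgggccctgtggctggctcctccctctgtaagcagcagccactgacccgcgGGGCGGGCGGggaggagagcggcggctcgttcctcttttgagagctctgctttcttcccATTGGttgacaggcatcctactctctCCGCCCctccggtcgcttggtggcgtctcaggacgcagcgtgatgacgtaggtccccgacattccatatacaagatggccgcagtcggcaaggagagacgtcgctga
CCNL1, chr3:157160098-157160397, minus strand: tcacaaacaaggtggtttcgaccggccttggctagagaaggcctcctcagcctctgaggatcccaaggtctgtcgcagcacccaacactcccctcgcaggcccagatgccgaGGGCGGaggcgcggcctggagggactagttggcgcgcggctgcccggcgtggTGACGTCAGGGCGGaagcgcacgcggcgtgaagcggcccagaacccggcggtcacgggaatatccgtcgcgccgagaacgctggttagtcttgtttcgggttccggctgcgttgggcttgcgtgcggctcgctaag

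All 4 windows held at least 1 GC box, a motif of the factor SP1 that 44.9% of the 34943 RefSeq promoter windows contained and 7 of the 10 windows of these genes did. CCAAT stood in the windows of *CCNT1*, *CCNT2* and *CCNK* and not in that of *CCNL1*, and in 5 of the 10 windows against 34.6% of all. It was also in those of *CDK11B* and *CCNL2*, which did not pass the test, and not in those of *CDK9*, *CDK12* and *CDK13*, which were called higher. The ETS core was in 4 of the 10 windows against 10.2% of all, and the E-box in 1 of the 10 against 7.23%. Of the windows shown, only that of *CCNT1* held either. The window of *CCNL1* was the 1 of the 10 with the cAMP response element, which directly abuts a GC box there and occurred in 1.84% of all windows. TATAAA was in none of the 10 windows, against 11.6% of all. A match is a run of letters, not a measured binding site.

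*CCNT1* encodes cyclin T1, the main cyclin of P-TEFb, and lies on the minus strand of chromosome 12 at chr12:48688458-48716998 (GENCODE v44 annotation of hg38). It had 102.3 and 108.3 CPM in the control libraries and 149.7 and 157.3 CPM in the libraries labelled sgUSP22. Both sgUSP22 libraries stood far above both controls. The difference between group means, 105.3 ± 4.22 against 153.5 ± 5.38 CPM (SD, n = 2 each), was larger than the spread between replicates. On the log2 scale it was 0.54 with a standard error of 0.0442 (edgeR adjusted p = 6.26e-06), or 1.46-fold. The 95% confidence interval reached from 1.36-fold to 1.56-fold, and 1.5-fold was passed without control replicate 2 (log2 value 0.586) and with library size alone (0.597).

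*CCNT2* encodes the other T-type cyclin and lies on chromosome 2 at chr2:134918235-134959342, plus strand. It had 43.1 and 38.9 CPM in the control libraries and 61.7 and 69.8 CPM in the libraries labelled sgUSP22. The groups were well apart, and *CCNT2* had the largest increase of the 10 genes, 1.61-fold, which is 0.68 on the log2 scale with a standard error of 0.0714 (edgeR adjusted p = 3.27e-05). An antisense gene, *CCNT2-AS1*, overlaps 150 bases of annotated *CCNT2* exons and had at most 0.712 CPM in any library.

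*CDK9*, the kinase itself, lies at chr9:127785679-127790792 on the plus strand. It had 60.6 and 60.7 CPM in the control libraries and 71.5 and 63.6 CPM in the libraries labelled sgUSP22. The controls were almost equal and the sgUSP22 libraries were spread, the lower one close to the controls. The log2 fold change was 0.16 (95% confidence interval 0.02 to 0.29, adjusted p = 0.0489, edgeR), at the edge of the threshold. The call was lost with DESeq2 (adjusted p = 0.0808), with RLE factors (0.0563), with upper quartile factors (0.0536) and with no filter (0.124). It was also lost without control replicate 1 (edgeR adjusted p = 0.103), without control replicate 2 (0.0959) and without sgUSP22 replicate 1 (0.55, at a log2 fold change of 0.056).

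The balance of the P-TEFb cyclins and their kinase was also examined. Per kilobase of the canonical transcript, the summed level of *CCNT1* and *CCNT2* divided by that of *CDK9* was 0.873 and 0.882 in the control libraries and 1.08 and 1.30 in the libraries labelled sgUSP22. The groups did not overlap, and the mean log2 ratio was 0.43 higher, beyond the larger within-group SD of 0.193. An exact two-sided permutation test over libraries gave p = 0.333, the smallest value that 2 against 2 libraries allow. With GC content and length corrected for (the trend is given further on), the log2 fold changes were closer, at 0.328 for *CCNT1*, 0.392 for *CCNT2* and 0.256 for *CDK9*. The balance between the T-type cyclins overlapped between groups, with *CCNT1* at 2.42 and 2.84 times *CCNT2* in control and at 2.47 and 2.30 times in sgUSP22 libraries.

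*CCNK* encodes cyclin K, the partner of CDK12 and CDK13, and lies at chr14:99481169-99535044 on the plus strand. It had 32.2 and 27.8 CPM in the control libraries and 40.4 and 39.5 CPM in the libraries labelled sgUSP22. The sgUSP22 libraries agreed closely with each other and exceeded both controls, which differed by 14.7% of their mean. The increase was 0.42 on the log2 scale with a standard error of 0.0761 (edgeR adjusted p = 0.0012), and without 1 library at a time it ranged from 0.31 to 0.53. Exons of the opposite-strand gene *CCDC85C* overlap 2990 of the 3524 bases of the canonical *CCNK* transcript, and the strand setting of the counting is not given in the sources used here, so reads of the pair may not be told apart. *CCDC85C* had 97.3 and 98.8 CPM in control and 117.3 and 114.9 CPM in sgUSP22 libraries, a log2 fold change of 0.24 (adjusted p = 0.000484, edgeR).

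*CDK12*, at chr17:39461486-39567559 on the plus strand, had 99.9 and 110.2 CPM in the control libraries and 113.5 and 119.1 CPM in the libraries labelled sgUSP22. The higher control library lay just under the lower sgUSP22 library. The log2 fold change was 0.15 (95% confidence interval 0.03 to 0.26, adjusted p = 0.0364, edgeR). The call was lost with no filter (adjusted p = 0.107), without control replicate 1 (0.265, log2 fold change 0.078) and without sgUSP22 replicate 2 (0.17, log2 fold change 0.112).

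*CDK13*, at chr7:39950121-40099580 on the plus strand, had 60.7 and 60.1 CPM in the control libraries and 67.0 and 73.3 CPM in the libraries labelled sgUSP22. Both sgUSP22 libraries exceeded the closely matched controls, by 0.22 on the log2 scale with a standard error of 0.0533 (edgeR adjusted p = 0.00675). Without sgUSP22 replicate 2 the log2 fold change was 0.149 and the adjusted p 0.09. *CDK12* stood at 1.89 and 2.11 times *CDK13* per kilobase in control and at 1.95 and 1.87 times in sgUSP22 libraries, so the balance of the kinases overlapped between groups. *CCNK* relative to the summed kinases was 0.496 and 0.402 in control and 0.553 and 0.508 in sgUSP22 libraries, without overlap, and the mean log2 ratio was 0.25 higher, close to the larger within-group SD of 0.214 (exact permutation p = 0.333).

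The increases of these kinases and of the T-type cyclins fell along a trend with base composition and length that ran through the whole table. The median log2 fold change of all tested genes was 0.19 in the lowest of 5 equal bins of transcript GC content and -0.16 in the highest, and it was -0.15 in the bin of the shortest transcripts and 0.18 in that of the longest. *CCNT1* (40.3% GC), *CCNT2* (37.0%), *CDK12* (45.9%) and *CDK13* (43.5%) all have transcripts in the bin of the longest and in the lower 2 bins of GC content. After trends with both properties were removed from each library, the log2 fold change was 0.33 for *CCNT1* (edgeR adjusted p = 0.00013) and 0.39 for *CCNT2* (0.0009), both below 1.5-fold. It was -0.001 for *CDK12* (adjusted p = 0.986) and 0.021 for *CDK13* (0.748), which ended both calls. *CDK9* (55.1% GC) and *CCNK* (51.7%) went the other way, to 0.256 and 0.467, and *CCNL1* was at -0.725. The part of this trend in the results was not tested beyond this correction.

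**Figure D2:**
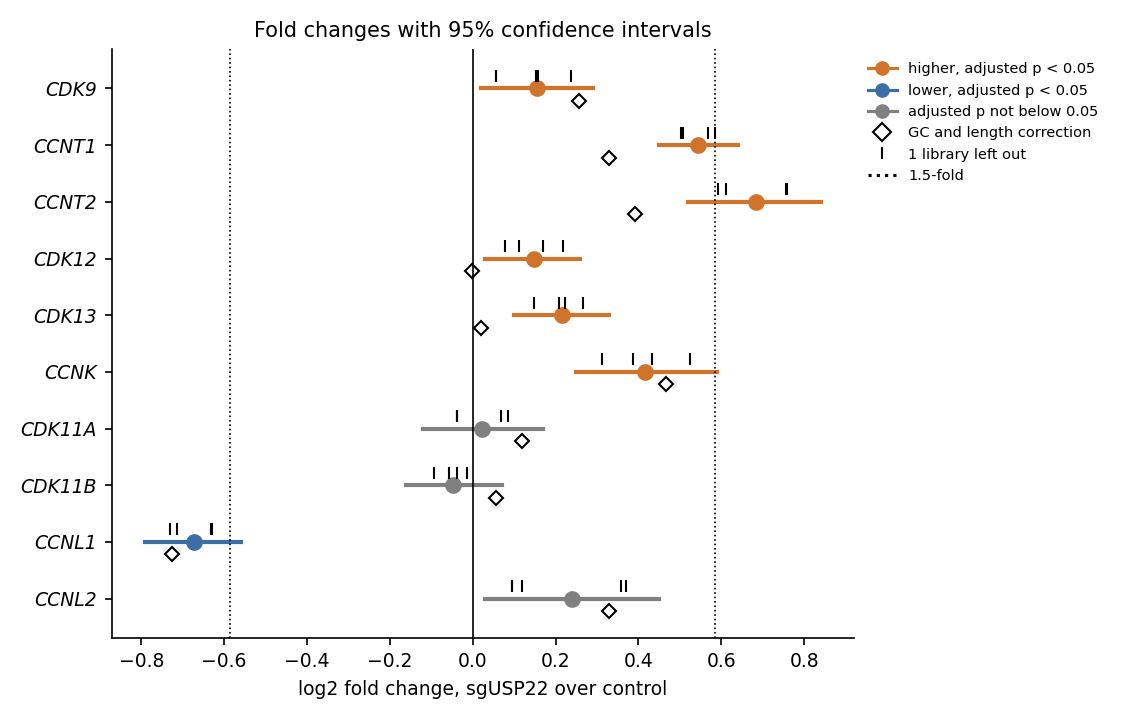
Log2 fold change (horizontal axis, sgUSP22 over control) of the 10 genes with its 95% confidence interval, coloured by the edgeR call, with the value after the GC and length correction (diamonds) and the values with 1 library left out (ticks). The estimates of *CCNL1* lie beyond 1.5-fold on the lower side in all of these fits, with an interval that reaches 0.68-fold, and *CDK12* and *CDK13* drop to -0.001 and 0.021 after the correction.

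The kinases CDK11A and CDK11B are encoded by near-identical genes that lie close together on the minus strand of chromosome 1, at chr1:1702379-1724357 and chr1:1635225-1659012. Their canonical transcripts, aligned end to end, were identical at 98.8% of 2954 aligned bases, with 34 differing bases and a longest identical run of 607 bases. Of all stretches of 100 bases in the *CDK11A* transcript, 49.4% also occur in that of *CDK11B*, so reads from such stretches cannot be assigned by sequence. The most different ungapped stretch of 60 coding bases is shown for both genes, with capitals where they differ. It spans the junction of exons 17 and 18 of 20 in each gene, with outer ends at chr1:1703610-1703868 for *CDK11A* and chr1:1636467-1636726 for *CDK11B*.

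CDK11A: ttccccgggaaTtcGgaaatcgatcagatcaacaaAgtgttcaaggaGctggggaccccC
CDK11B: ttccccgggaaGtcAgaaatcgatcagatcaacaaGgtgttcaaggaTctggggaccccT

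With positions numbered from 1 at the left and the base of *CDK11A* first, the differences are T12G, G15A, A36G, G48T and C60T, so even here only 5 of 60 bases tell the transcripts apart.

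*CDK11B* had 52.1 and 51.4 CPM in the control libraries and 51.3 and 48.9 CPM in the libraries labelled sgUSP22. Both sgUSP22 libraries lay below both controls by little. The log2 fold change was -0.05 (95% confidence interval -0.16 to 0.07, adjusted p = 0.482, edgeR). The interval leaves room for a change of at most 0.89-fold to 1.05-fold, and the sign turned both with library sizes as the only scaling (0.006) and once GC content and length were corrected for (0.056).

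*CDK11A* had 47.7 and 43.8 CPM in the control libraries and 44.5 and 48.4 CPM in the libraries labelled sgUSP22, fully interleaved. Its log2 fold change was 0.02 (95% confidence interval -0.12 to 0.17, adjusted p = 0.795, edgeR), and the sign turned without control replicate 2 (-0.037) and without sgUSP22 replicate 2 (-0.039). Because the assignment of reads within the pair is uncertain, the counts were also summed to a single feature and refitted in the whole table. The pair then had 99.8 and 95.2 CPM in control and 95.8 and 97.3 CPM in sgUSP22 libraries, a log2 fold change of -0.014 (95% confidence interval -0.11 to 0.08, adjusted p = 0.813, edgeR). Its interval lies within 1.5-fold in both directions. Exons of an unnamed same-strand long non-coding RNA gene overlap 2273 of the 2984 bases of the canonical *CDK11A* transcript. That gene is not among the counted genes, and the sum does not address its reads.

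Of the L-type cyclins *CCNL1* fell, and *CCNL2* did not pass the test. *CCNL1* encodes cyclin L1 and lies at chr3:157146508-157160760 on the minus strand. It had 98.7 and 93.3 CPM in the control libraries and 57.8 and 62.6 CPM in the libraries labelled sgUSP22. Both sgUSP22 libraries were far below both controls. The group means were 96.0 ± 3.78 and 60.2 ± 3.35 CPM (SD, n = 2 each), and the difference was -0.67 on the log2 scale with a standard error of 0.0522 (edgeR adjusted p = 4.67e-06), the smallest p of the 10 genes. Without 1 library at a time it ranged from -0.73 to -0.63.

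*CCNL2* encodes cyclin L2 and lies near the *CDK11* pair, at chr1:1385711-1399335 on the minus strand. It had 72.1 and 60.4 CPM in the control libraries and 70.8 and 85.6 CPM in the libraries labelled sgUSP22. The replicates of *CCNL2* were the most spread of the 10 genes, differing by 17.6% and 18.9% of their mean, and sgUSP22 replicate 1 lay below control replicate 1. The log2 fold change was 0.24 (95% confidence interval 0.03 to 0.45, adjusted p = 0.058, edgeR). The threshold was passed with library size alone (adjusted p = 0.0266), with a mean of at least 50 counts (0.0409), after the GC and length correction (0.0188), without control replicate 1 (0.00332) and without sgUSP22 replicate 1 (0.00763).

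Per kilobase, *CCNL1* stood at 1.84 and 2.07 times *CCNL2* in the control libraries and at 1.10 and 0.98 times in the libraries labelled sgUSP22. The ratio fell in both sgUSP22 libraries, by 0.91 on the log2 scale. The larger within-group SD was 0.123 (exact permutation p = 0.333, the smallest possible). With union exon lengths the ratio was 1.07 and 1.21 in control and 0.64 and 0.57 in sgUSP22 libraries. The size of the fall was the same with both lengths, but which group lay near parity depends on the length used. The summed cyclin L level per kilobase was 65.6 and 59.6 CPM in control and 47.7 and 54.5 CPM in sgUSP22 libraries. Relative to the summed *CDK11* kinases this was 1.97 and 1.87 in control and 1.49 and 1.67 in sgUSP22 libraries, a log2 difference of -0.283 against a larger within-group SD of 0.12 (exact permutation p = 0.333). With union exon lengths the difference was -0.156 against an SD of 0.147, and the nearest libraries of the groups almost touched, at 0.837 and 0.836.

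**Figure D3:**
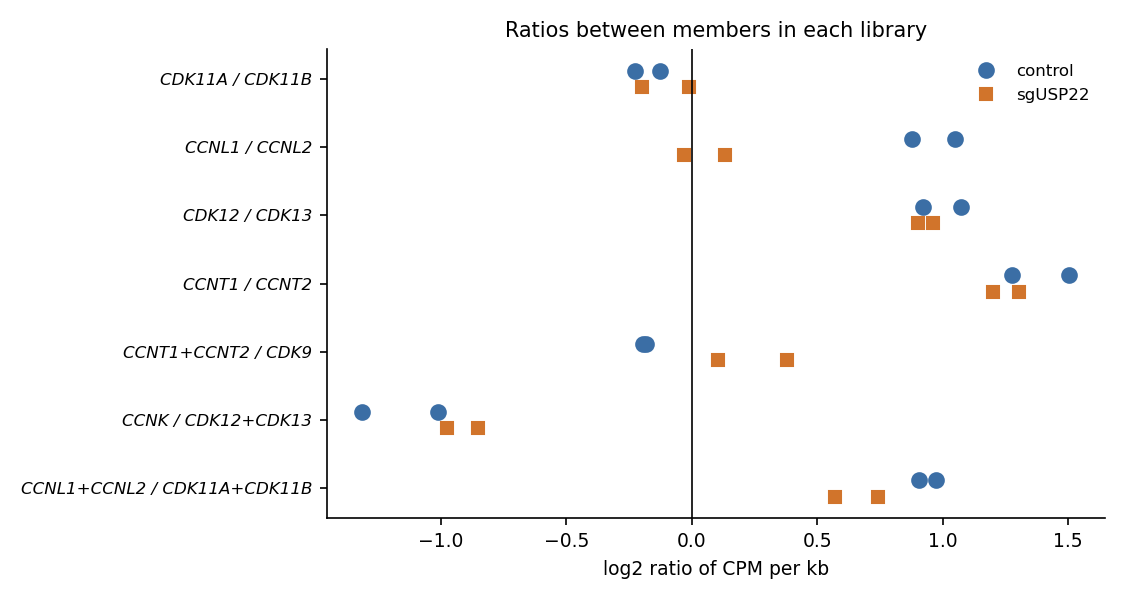
Log2 ratio of CPM per kilobase of canonical transcript (horizontal axis) for 4 paralog pairs and 3 cyclin-to-kinase pairs, as 1 point for each control library (blue circles) and each library labelled sgUSP22 (orange squares). The groups are separate for *CCNL1* over *CCNL2* and for the 3 cyclin-to-kinase ratios, and they overlap for *CDK11A* over *CDK11B*, *CDK12* over *CDK13* and *CCNT1* over *CCNT2*.

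By level per kilobase of canonical transcript, the control libraries ran from *CCNL1* (41.3 ± 1.63 CPM per kilobase, SD, n = 2) through *CDK9* (24.4), *CCNL2* (21.3), *CDK11B* (17.3), *CCNT1* (15.5), *CDK11A* (15.3), *CDK12* (12.7), *CCNK* (8.50) and *CDK13* (6.34) to *CCNT2* (5.92 ± 0.43). Neighbours in this order did not overlap between replicates, except *CCNT1* and *CDK11A*. In the libraries labelled sgUSP22, *CDK9* (27.2), *CCNL1* (25.9), *CCNL2* (25.1) and *CCNT1* (22.6) overlapped from each one to the next, and *CCNT2* (9.51) stood above *CDK13* (7.36). With the union of all annotated exons as the length, *CDK9* led in both groups (20.2 and 22.5 CPM per kilobase) and *CCNL1* ranked 4 and 8, so the top of the order depends on the length used.

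Each gene was also set beside its neighbourhood, the tested genes that start within 2 Mb on either side. Around *CDK13*, 6 of 7 neighbours had a negative log2 fold change and the median log2 fold change was -0.21, while *CDK13* itself was at 0.22. The 18 neighbours of *CCNL1* had a median of 0.098 against its -0.67, and the 57 neighbours of *CCNT1* a median of 0.003 against its 0.54. The 11 neighbours of *CCNT2* had a median of 0.22, in the direction of *CCNT2* at 0.68, and 0.058 over the 35 within 5 Mb. The medians were -0.084 around *CCNK*, -0.14 around *CDK9*, -0.17 around *CDK12* and *CCNL2*, and -0.042 around *CDK11A* and *CDK11B*. The pair's duplicated segment also holds *SLC35E2A* and *SLC35E2B*, at log2 fold changes of 0.21 (adjusted p = 0.0776) and 0.28 (adjusted p = 0.000519, edgeR).

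The partners of these genes were examined through lists of the surrounding pathway. Every count of a list below stands beside the share of all 15150 tested genes, 26.8% higher and 25.8% lower. After the GC and length correction 3488 of all tested genes were higher and 3826 lower, and with library size alone 4708 and 3323. Among 6 genes that control P-TEFb, 2 were higher and 2 lower. *MEPCE*, which caps and stabilises the 7SK RNA, rose from 18.7 and 18.8 to 26.4 and 28.2 CPM (log2 fold change 0.54, adjusted p = 0.000238, edgeR), and *HEXIM1*, the inhibitor that 7SK presents to P-TEFb, rose slightly (0.17, adjusted p = 0.0171). *LARP7*, the 7SK-bound protein, was at a log2 fold change of 0.11 (adjusted p = 0.209, edgeR) and at -0.04 after the GC and length correction. That correction brought *MEPCE* to 0.68, past 1.5-fold, and *HEXIM1* to 0.18. With it 3 genes of this list were higher and 2 lower, and the median went from 0.142 to 0.068. *RN7SK* itself was at 3.57 and 3.65 CPM in control and 2.15 and 1.63 CPM in sgUSP22 libraries (log2 fold change -0.94, adjusted p = 0.00328), but this RNA has no poly(A) tail and the libraries are of poly(A) RNA.

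Of 9 tested genes of the super elongation complex, which carries P-TEFb to paused Pol II, 5 were higher and 1 lower, with a median log2 fold change of 0.28. *ELL3*, a low-level elongation factor, rose from 2.90 and 2.74 to 4.82 and 4.99 CPM (0.80, adjusted p = 0.00188, edgeR), and was the list's 1 gene past 1.5-fold. *AFF4*, the scaffold that binds cyclin T1, rose from 137.4 and 142.2 to 205.4 and 211.6 CPM (log2 fold change 0.58, adjusted p = 1.76e-06), and *ELL* fell (-0.51, adjusted p = 0.000591). After the GC and length correction 3 were higher and 1 lower, with a median of 0.11 and *AFF4* at 0.34.

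Of the 12 Pol II subunit genes 7 were lower, against 25.8% of all tested genes, and 1 higher, with a median log2 fold change of -0.21. The count of lower genes ranged from 5 (without sgUSP22 replicate 2) to 9 over the alternatives, and the median was -0.12 after the GC and length correction. *POLR2I* (-0.61, adjusted p = 0.000127, edgeR) and *POLR2E* (-0.60, adjusted p = 1.89e-05) passed 1.5-fold, although after the GC and length correction they were at -0.38 and -0.47, still past the adjusted p threshold. *POLR2A*, the catalytic subunit whose tail the kinases phosphorylate, fell as well (log2 fold change -0.36, adjusted p = 1.73e-05). Of the 12 pausing and elongation factors 4 were lower, 33.3% against 25.8% of all tested genes, and 0 higher. Among the lower were *NELFB* of the pausing complex NELF (-0.33, adjusted p = 0.000166, edgeR) and *SSRP1* of the histone chaperone FACT (-0.32, adjusted p = 2.63e-05). With library size alone 2 of these factors were called higher and 3 lower, and after the GC and length correction 2 higher and 5 lower, with *NELFB* at -0.18. The median moved from -0.099 to -0.048 under that correction.

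Of 7 phosphatases and phosphatase partners that act on the Pol II tail 3 were higher and 1 lower. *PPP1R10*, a targeting subunit of protein phosphatase 1, had the largest value (log2 fold change 0.38, adjusted p = 0.0122, edgeR). After the GC and length correction 4 of them were higher and 1 lower, and the median went from 0.132 to 0.276. Of 8 genes of the initiation kinase CDK7 and the Mediator kinases 3 were higher and 2 lower, with *MED13* at 0.51 (adjusted p = 1.02e-05, edgeR) and *CDK19* at -0.47 (adjusted p = 0.000244). After the GC and length correction *MED13* was at 0.21 and *CDK19* at -0.62, which is past 1.5-fold. These 8 genes then had 2 higher and 2 lower, and their median turned from 0.027 to -0.085. *CDK7*, which activates other CDKs by phosphorylation, was at -0.03 (adjusted p = 0.686).

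Of 11 CDK11 partners and splicing kinases 5 were higher and 2 lower. *SAP30BP*, a partner of the CDK11-cyclin L complex, was at 0.09 (adjusted p = 0.187, edgeR) and *SF3B1*, the splicing factor that CDK11 phosphorylates, at -0.05 (adjusted p = 0.383). *CASP8AP2*, which works in histone gene expression, was higher (log2 fold change 0.27, adjusted p = 0.00162), a call that ended after the GC and length correction (0.02, adjusted p = 0.832). That correction brought *SAP30BP* to 0.19 (adjusted p = 0.0189) and *SF3B1* to -0.24 (adjusted p = 0.000604), both past the threshold. *CLK1*, a kinase of splicing factors, fell from 150.1 and 138.8 to 96.8 and 104.7 CPM (log2 fold change -0.52, adjusted p = 2.42e-05), and *CLK2* rose (0.40, adjusted p = 0.000303). The list's median was 0.094, and after the GC and length correction it turned to -0.094, with 3 higher and 5 lower.

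Genes known to depend on these kinases were examined next. Of 15 DNA repair genes whose transcripts depend on CDK12, 6 were higher and 2 lower, with a median log2 fold change of 0.13. *BRCA2* passed 1.5-fold, from a mean of 14.4 CPM in control to one of 22.4 CPM in sgUSP22 libraries (log2 fold change 0.63, adjusted p = 0.000132, edgeR), and *ATM* was at 0.50 (adjusted p = 6.59e-05). *FANCD2* (-0.28) and *RAD51D* (-0.22) were the lower genes. After the GC and length correction 2 were higher and 2 lower, with *BRCA2* at 0.27, *ATM* at 0.17 and *RAD51D* at -0.37, and without sgUSP22 replicate 2 the count of higher genes was 3.

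Of 9 short-lived transcripts that depend on P-TEFb, 3 were higher and 5 lower, and the largest change of all 11 lists was among them. *EGR1*, an immediate early transcription factor, rose from 17.1 and 13.8 to 160.9 and 158.2 CPM (log2 fold change 3.37, adjusted p = 3.12e-09, edgeR), and *FOS* rose from 46.2 and 43.6 to 84.5 and 84.9 CPM (0.92, adjusted p = 4.68e-07). *JUN*, a partner of FOS in AP-1, fell from 72.3 and 70.6 to 35.4 and 30.5 CPM (-1.12, adjusted p = 1.15e-06, edgeR), as did *FOSL1* (-0.70, adjusted p = 6.5e-05). After the GC and length correction *JUN* was at -1.02, and *FOSL1* at -0.54, which is below 1.5-fold. The survival gene *MCL1* (-0.50, adjusted p = 8.79e-07), *IER3* (-0.57) and *MYC* (-0.23, adjusted p = 0.000215) were lower, so the list had no common direction. These genes also answer to growth factor and stress signals.

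**Figure D4:**
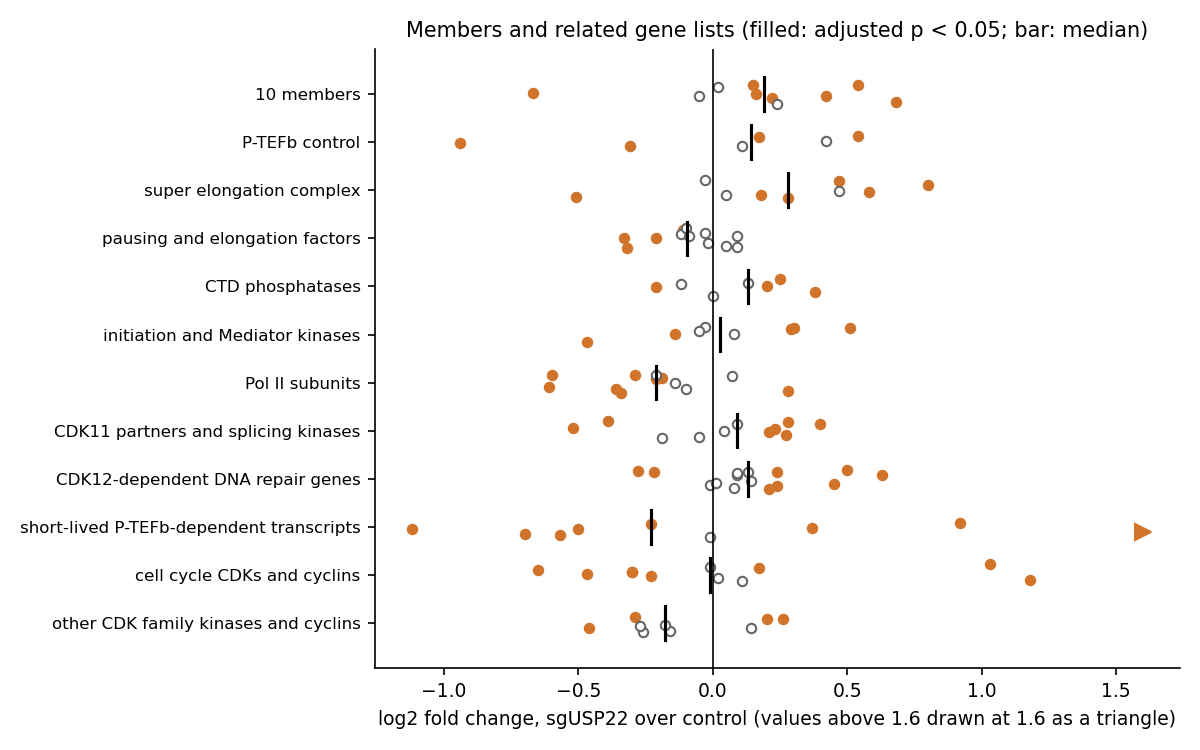
Log2 fold change (horizontal axis, sgUSP22 over control) of each tested gene in the 10 examined genes and in 11 related lists, filled where the edgeR adjusted p was below 0.05, with the median of each list as a bar. Pol II subunits lie mostly below 0 with a median of -0.21, and *EGR1*, at 3.37, is drawn at the right edge as a triangle.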

How the data were processed

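The authors aligned reads to hg38 with HISAT2 2.2.1 and deposited whole-number gene counts from StringTie 2.2.1 that were not divided by library size. The annotation, strand setting and read length are not given in the sources used here. Each of the 4 columns was mapped to its sample by name, and 0 columns were left over. Total counts were 62030307 to 64728272 per library, and counting error was below the spread between replicates (mean chi-square per gene 7.86 and 8.25 within the groups). Nothing states that replicates came from separate cultures, so p-values measure the spread between these libraries.

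The quasi-likelihood test of edgeR 4.0.16 (R 4.3.3; TMM; filterByExpr, 10 counts as the minimum) was fitted on all 15150 genes that passed and adjusted by Benjamini-Hochberg over all of them. The standard error was derived from each log2 fold change and its F statistic. Simulated counts for the control against sgUSP22 comparison had 200 changed genes, and 14872 genes were fitted. The procedure recovered 63.6%, 78.8% and 92.2% of genes changed 1.5-fold, by 1 and by 2 on the log2 scale, with 17 false calls. In the deposited counts 52.5% of tested genes were called, far more than were changed in the simulation, so these rates do not carry over. Levels between genes were divided by the length of the canonical GENCODE v44 transcript. The alternatives were DESeq2 1.42.0, RLE and upper quartile factors, library sizes as the only scaling, a filter at 50 mean counts or none at all, a block for the replicate number, a lowess correction (span 0.3) for GC content and length known for 94.1% of tested genes, union exon lengths and leaving out each library. The cyclin-to-kinase ratios and the promoter motifs were added after the data were seen.

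The genes, the pathway lists and the alternatives were chosen with earlier results of these data known. Genes named from a list are those past an adjusted p of 0.05 and 1.5-fold, at most 4, otherwise the 2 largest past the adjusted p, and known partners or regulators of the 10 genes. *AFF4*, *ELL*, *POLR2A*, *CDK7*, *ATM*, *FANCD2*, *RAD51D*, *MCL1*, *IER3*, *MYC*, *CCDC85C*, *CCNT2-AS1*, *SLC35E2A* and *SLC35E2B* lie outside this rule and were chosen after their values were seen. The values of 1 gene of the lists are not reported here.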

Additional observations from a re-analysis of the deposited data

How the results depend on the processing

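Of 80 comparisons of the log2 fold change of the 10 genes with another setting that kept all libraries, 67 kept their direction and their side of the adjusted p threshold. In these settings, and with each library left out, *CCNT1*, *CCNT2*, *CCNK* and *CCNL1* kept their calls, from 0.33 to 0.60, from 0.39 to 0.76, from 0.31 to 0.53 and from -0.73 to -0.62. With a library left out, 4 to 6 genes were higher and 1 lower. The direction reversed for *CDK12* after the GC and length correction (-0.001), for *CDK11B* when library size was the only scaling (0.006) or after that correction (0.056), and for *CDK11A* without control replicate 2 (-0.037), without sgUSP22 replicate 2 (-0.039) and when summed with *CDK11B* (-0.014). With a library left out *CDK11A* ranged from -0.039 to 0.084. The cause was not tested. After the GC and length correction 1 gene passed 1.5-fold, against 2, since *CCNT2* went to 0.39. A fit with a single library in a group assumes that it varies like the other group.

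With 5 Mb in place of 2 Mb, the median of the neighbourhood was -0.058 for *CDK9*, -0.048 for *CCNT1*, 0.058 for *CCNT2*, -0.098 for *CDK12*, 0.019 for *CCNK*, 0.025 for *CCNL1* and -0.04 for *CCNL2*. Neither labels nor methods tie a replicate number to a batch, and the deviations of libraries with the same number correlated at 0.0782, so the numbers were not read as pairs. With the replicate block 7 of the 10 genes were higher, against 6, because *CCNL2* passed (adjusted p = 0.0142), and 1 was lower. The 10 genes had between 1732 and 10158 counts in every library, and 2 libraries a group limit the precision.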

Other observations

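The cell cycle CDKs and cyclins, which share the kinase fold and the cyclin box with the elongation group, had 3 genes higher and 5 lower of 11 tested, with a median log2 fold change of -0.014. These are 27.3% higher and 45.5% lower, against 26.8% and 25.8% of all tested genes. After the GC and length correction 4 were higher and 6 lower, with a median of -0.14. *CDK1*, the mitotic kinase, had 213.2 and 216.3 CPM in the control libraries and 137.3 and 136.9 CPM in the libraries labelled sgUSP22, a log2 fold change of -0.65 (adjusted p = 5.87e-07, edgeR). The E-type cyclins of the G1/S transition rose, *CCNE2* from a mean of 8.18 to one of 18.6 CPM (1.18, adjusted p = 6.81e-06) and *CCNE1* from 2.77 and 3.96 to 7.08 and 6.68 CPM (1.03, adjusted p = 0.00091). Of 9 tested genes of the remaining CDK family 2 were higher and 2 lower, 22.2% each and near the shares of all tested genes. The largest value there was that of *CDK5* (-0.46, adjusted p = 0.00225), followed by *CDK16* (-0.29, adjusted p = 6.07e-05). After the GC and length correction they were at -0.29 and -0.17, and 0 of the 9 were higher and 2 lower.

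The genes most like *CCNL1* over the 4 libraries, by Euclidean distance between log2 CPM centred on each gene's mean, were *D2HGDH* (distance 0.0188), *ANK2* (0.0216) and *GSTM4* (0.0272), and 53 genes lay within 0.1. For *CCNT1* they were *BIRC6* (0.0189), *RBSN* (0.019) and *UBXN7* (0.0204), with 231 genes within 0.1. For *CCNT2* they were *TRAK2* (0.034), *ZNF510* (0.0418) and *DIDO1* (0.0455), with 42 genes within 0.1. The likeness is over 4 libraries in 2 groups and is given as a description.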
